A study of Mesocricetus auratus with 38 samples.

Results

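The extracellular matrix genes described here were the rows of the deposited liver tables whose symbol begins with Col, a number, a and a number (collagens), Lama, Lamb or Lamc and a number (laminins), Mmp and a number (matrix metalloproteinases, with Mmp12 left out), Adamts and a number, or Lox, together with Timp1 to Timp4, Fn1, Sparc, Dcn, Lum and Bgn. The rule found 93 of the 14631 symbols. Of these, 45 passed the filter on low counts and entered the tests, and 48 did not. By role the 93 were 10 fibrillar collagens, 5 collagens of basement membranes including Col18a1, 19 other collagens, 10 laminins, 16 metalloproteinases, 4 tissue inhibitors of metalloproteinases (TIMPs), 5 lysyl oxidases, 17 ADAMTS proteases and the 5 symbols Fn1, Sparc, Dcn, Lum and Bgn. The remaining 2, Col4a3bp and Loxhd1, matched the symbol pattern but do not encode matrix proteins. Col4a3bp is the older name of the ceramide transporter Cert1, and Loxhd1 is known from hair cells of the inner ear.

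Collagens and laminins are secreted as trimers that form fibrils and sheets around liver cells, and lysyl oxidases crosslink the collagens. Metalloproteinases and ADAMTS proteases cut matrix proteins, and TIMPs block the metalloproteinases. In mammalian liver, stellate cells and portal fibroblasts make most of the fibrillar collagen, endothelial cells and cholangiocytes add to basement membranes, and hepatocytes secrete the fibronectin of the plasma. Accumulation of fibrillar collagen, Timp1 and lysyl oxidases is the hallmark of liver fibrosis, which can follow fat accumulation.

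RNA-seq was run on livers of male Golden Syrian hamsters (Mesocricetus auratus) of 22 weeks, after 12 weeks of diet. The HFD group (10 libraries) was fed a high-fat diet, in which fat made 23% of calories and cholesterol was added at 1 g/kg, and was given a placebo in the last 4 weeks. The groups HFD + MI_D1 (Dose I, 9 libraries) and HFD + MI_D2 (Dose II, 10 libraries) had the same diet and received combined metabolic activators (CMA) in those 4 weeks. CMA combined L-carnitine (given as its tartrate, dosed by its carnitine content), N-acetyl-cysteine and nicotinamide riboside, each at 200 mg/kg in Dose I and 400 mg/kg in Dose II, with betaine in the drinking water at 400 mg/kg in Dose I and 800 mg/kg in Dose II. All but betaine were given orally. The paper's methods describe diluted condensed milk that the hamsters licked, while its results name gavage. The control group (Chow diet, 9 libraries) was fed a diet with 11% of calories from fat. The labels name no animal, and each library was taken as 1 hamster, so the p-values measure the spread between libraries.

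The libraries held 4075598 to 10384520 counts. Alb, the albumin gene that defines hepatocytes, was at 91547 TMM-normalised CPM (counts scaled to the effective library size) or above in all 38 libraries. Control library C105 stood apart from the other controls. Its first principal component score was 19.2, against -8.40 to 7.32 in HFD, -0.69 to 12.3 in Dose I, 2.02 to 11.8 in Dose II and -23.1 to -12.7 in the other 8 controls. C105 was left out of the comparisons below, and values with it are given where they change a call. The libraries also differed in how their counts leaned towards long transcripts. Spearman's rho between relative transcript length and a library's deviation from the mean was -0.20 to 0.18 in HFD and 0.12 to 0.34 in the 8 controls. This bears on matrix genes because they are long: the median relative length was 2.38 for the 45 tested members and 1.09 for all 9099 tested genes, and 40 of the 45 were longer than the median gene.

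Matrix transcripts of these livers were dominated by Fn1 (fibronectin) and Col18a1 (collagen XVIII, the precursor of endostatin). Fn1 averaged 290 TPM (counts scaled by transcript length, so that genes can be compared) over the 37 libraries and made up 48.8% of the summed TPM of all 93 members. Col18a1 averaged 107.5 TPM, and the pair held 66.9% of the sum. Next came the small proteoglycans Dcn at 29.4 TPM and Bgn at 23.7 TPM, the collagen-binding glycoprotein Sparc at 23.6 TPM, the fibrillar collagen Col3a1 at 15.9 TPM and the collagenase Mmp13 at 11.9 TPM. These 7 were the members above 10 TPM. A further 19 lay between 1 and 10 TPM and 67 were under 1 TPM.

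Fn1 spanned 224 to 361 TPM in HFD livers, 219 to 342 TPM in Dose I, 169 to 364 TPM in Dose II and 274 to 442 TPM in controls. Its ranges overlapped between all groups, and the lowest Fn1 library was a Dose II liver. Col18a1 spanned 70.6 to 130.7 TPM in HFD, 76.6 to 144 TPM in Dose I, 90.3 to 136.1 TPM in Dose II and 71 to 130.4 TPM in controls. No group stood apart for Col18a1 either.

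The 2 chains of type I collagen, the main fibril of scar tissue, were read at unequal levels. Col1a1 averaged 0.358 TPM and Col1a2 averaged 2.91 TPM over the 37 libraries. The gap was present in each group: 0.442 against 3.46 TPM in HFD, 0.305 against 2.52 TPM in Dose I, 0.294 against 2.41 TPM in Dose II and 0.392 against 3.28 TPM in controls. The chains of type IV collagen, the sheet of basement membranes, lay closer, at 7.0 TPM for Col4a1 and 2.38 TPM for Col4a2. The gene model behind the Col1a1 row was not checked, so its level is given as deposited.

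**Figure D1:**
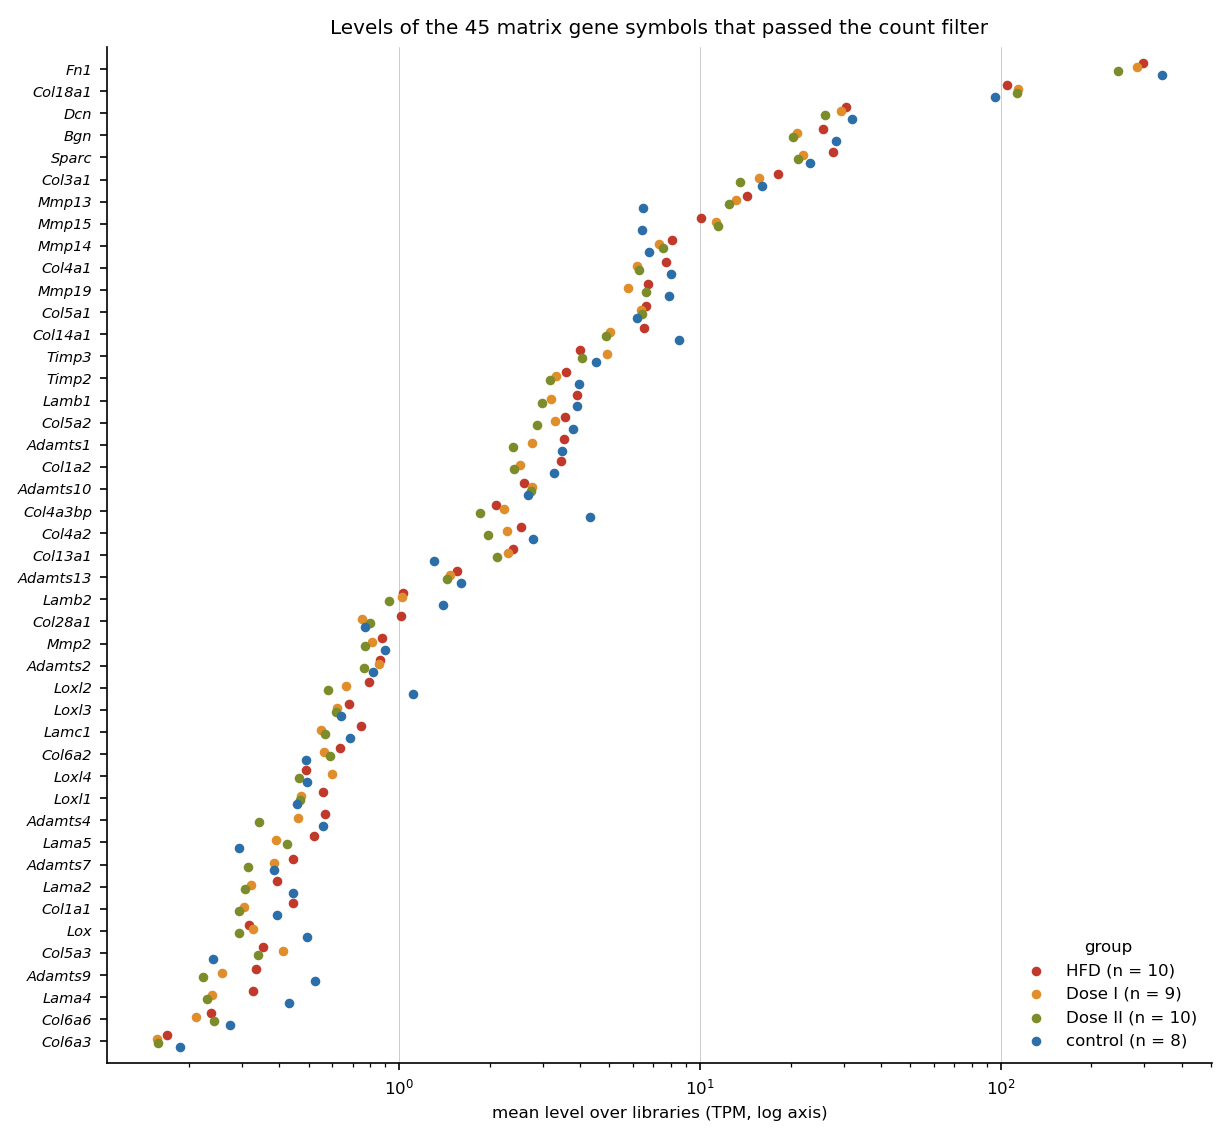
Mean TPM (log axis) of the 45 members that passed the count filter, 1 row per symbol, with HFD (n = 10), Dose I (n = 9), Dose II (n = 10) and control (n = 8, without C105) as 4 points. Fn1 and Col18a1 lie above all other members, and the points of the 4 groups lie close together for most symbols, with Mmp13, Mmp15, Col13a1 and Lama5 lower and Col4a3bp and Adamts9 higher in controls.

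Of the 48 members that did not pass, 4 (Col10a1, Col26a1, Mmp20 and Loxhd1) had 0 counts in all 38 libraries, which allows a level of up to 0.0134 CPM, a limit for counting error only. A further 15 had 1 to 10 counts over all libraries, 17 had 11 to 100 and 12 had more than 100. The chains of collagens II, IX and XI, known from cartilage, did not pass, and their totals ran from 1 count for Col2a1 and 16 counts for Col11a1 to more than 100 for Col9a3. The gelatinase Mmp9, a protease of neutrophils and macrophages, had 10 counts in total, and the highest library held 2. Timp1, the inhibitor most tied to fibrosis, had 233 counts in total and Lum, a fibril-binding proteoglycan, had 192. Timp1 has a short transcript, with a relative length of 0.32, and still averaged 1.60 TPM over the 37 libraries. Lum averaged 0.51 TPM. The filter lay near these totals: the highest total among members that failed was 299 (Lamb3) and the lowest among members that passed was 278 (Col6a3).

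In the HFD, Dose I and control groups many matrix genes were highest in a single liver of the group. In HFD, library H113 held the group's highest value for 23 of the 45 tested members, whereas it was the highest HFD library for 13.1% of all 9099 tested genes. In Dose I, library DI122 was highest for 20 of 45, against 12.4% of all tested genes. Among controls C103 was highest for 18 of 45, against 12.2% of all tested genes. In Dose II no library held more than 10 (DII129, against 9.58%). At the other end, HFD library H116 was lowest for 14 of 45 members, against 10.2% of all tested genes.

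The same livers led for the summed CPM of 16 marker genes of stellate cells. Such a sum mainly follows its most abundant genes. In HFD the medians were 4.67 CPM for the stellate marker Lrat and 6.65 CPM for Acta2, against 264 CPM for the sum. H113 reached 364 CPM, the highest of 10 HFD libraries, and DI122 reached 324 CPM, the highest of 9 Dose I libraries. C103 reached 348 CPM, the highest of 8 controls. Single markers did not always peak in these livers. Lrat was highest in H113 in HFD, DI124 in Dose I and C108 in controls. Acta2 was highest in H113, DI123 and C103, and Des, another stellate marker, in H117, DI128 and C106. The 3 livers were also highest in their groups for the sum of 14 neutrophil and lymphocyte markers, at 64.9 CPM in H113, 60.1 CPM in DI122 and 67.5 CPM in C103. Other cell types followed this order only in part. For 21 macrophage markers H113 ranked 2 of 10, DI122 ranked 1 of 9 and C103 ranked 7 of 8, and for 16 sinusoidal endothelial markers the ranks were 1 of 10 for H113, 2 of 9 for DI122 and 6 of 8 for C103. Portal fibroblast and mesothelial markers ranked H113 3 of 10, DI122 2 of 9 and C103 2 of 8. Hepatocyte markers were low in H113, which ranked 8 of 10, and in DI122, which ranked 9 of 9. C103 ranked 6 of 8 for them, at 247190 CPM, near the control median of 251098 CPM. Cholangiocyte markers ranked H113 5 of 10, DI122 2 of 9 and C103 7 of 8. The part of these cells in the matrix values was not tested. In whole liver, fewer cells of a type and less RNA per cell cannot be told apart.

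Summed over the 10 fibrillar collagens, HFD livers had 32.9 ± 10.4 TPM (SD, n = 10), Dose I livers 28.8 ± 8.48 TPM (n = 9), Dose II livers 26.1 ± 3.30 TPM (n = 10) and controls 30.1 ± 6.97 TPM (n = 8). The highest sum was 54.9 TPM in H113 and 48.8 TPM in DI122, against 42.2 TPM in C103. This sum too mainly follows its most abundant genes. Over the 37 libraries it averaged 29.5 TPM, of which Col3a1 made 15.9 TPM, and 6 of the 10 genes passed the filter. The Dose II livers were the most alike in this sum, and the difference in spread between the groups was not tested.

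**Figure D2:**
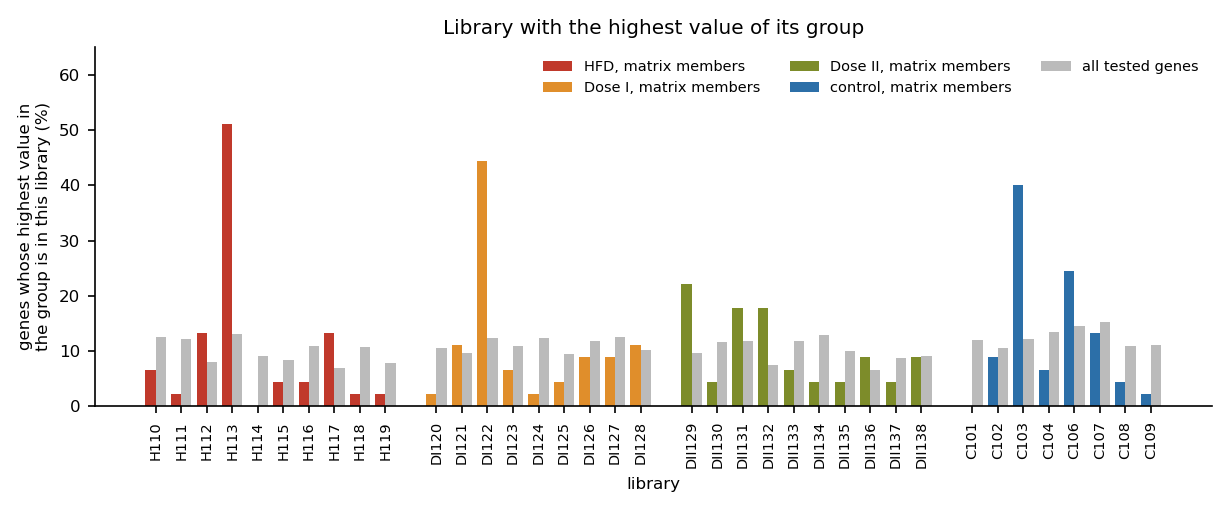
Share of genes (%) whose highest value within the group fell in a given library, for the 45 tested matrix members (coloured bars) and for all 9099 tested genes (grey bars), over 10 HFD, 9 Dose I, 10 Dose II and 8 control libraries. H113, DI122 and C103 hold far larger shares of the matrix members than of all genes.

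HFD vs. control asks how the high-fat diet changed the liver. Few matrix genes moved: 8 of the 45 tested members (17.8%) passed an adjusted p of 0.1 in edgeR, against 36.2% of all 9099 tested genes (18.1% rose and 18.1% fell). With C105 it was 5 of 44, against 15.6% of all genes tested. Of the 8, 5 rose in HFD livers (Mmp13, Mmp15, Mmp14, Col13a1 and Lama5) and 3 fell (Col4a3bp, Adamts9 and Col14a1). The median log2 fold change was 0.05 over the 45 members, of which 20 were below 0, and 0.01 over all tested genes, of which 48.7% were below 0. With the length trend of each library removed, the member median was 0.12, with 15 of 45 below 0, against 0.01 over all tested genes. The members that rose were 3 of the 5 tested metalloproteinases, 1 of 6 laminins and 1 of 6 other collagens. None of the 6 fibrillar collagens, 3 basement-membrane collagens, 2 TIMPs, 5 lysyl oxidases and 4 glycoproteins and proteoglycans tested passed, which does not show that they were equal.

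Mmp13, the main interstitial collagenase of rodents, had the largest fold change of the 45. It was at 14.1, 30.9 and 72.9 CPM in HFD livers (lowest, median and highest) and at 7.90, 17.0 and 26.8 CPM in control livers. Of the 10 HFD livers 8 lay above every control, so the ranges overlapped only at the low end of HFD. The fold was 2.25 (log2 1.17 ± 0.34 SE, edgeR adjusted p = 0.0088). Mmp13 was also the most variable member within groups, with an SD of 0.76 on the log2 scale.

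Mmp15, a protease anchored in the cell membrane, separated the 2 groups. HFD livers had 33.4, 39.2 and 54.95 CPM and control livers 14.9, 27.3 and 32.9 CPM. Every HFD liver lay above every one of the 8 controls, which was the case for 1 of 45 members (2.22%) and for 1.78% of all tested genes in either direction. The fold was 1.57 (log2 0.65 ± 0.16 SE, edgeR adjusted p = 0.0022). C105 did not share the low level of the other controls, at 55.9 CPM, and with it the adjusted p was 0.062.

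Mmp14, the membrane protease that activates Mmp2, rose less, with 17.5, 22.8 and 31.2 CPM in HFD livers and 15.8, 19.3 and 22.5 CPM in control livers. The ranges overlapped and 6 HFD livers lay above every control. The fold was 1.21 (log2 0.27 ± 0.12 SE, edgeR adjusted p = 0.085). This call was lost with C105 (log2 0.28, adjusted p = 0.12, edgeR), with no filter on low counts (adjusted p = 0.12, edgeR), with limma-trend on log2(TPM + 1) or log2(TPM + 0.1) (adjusted p = 0.16 and 0.17), and on leaving out any one of 8 libraries (C101, C102, C103, C104, C108, H110, H112 or H119), with adjusted p up to 0.18. Mmp2 itself, a gelatinase of stellate cells, was at 1.47, 2.44 and 4.67 CPM in HFD livers and 2.01, 2.87 and 3.48 CPM in control livers, with a log2 fold change of 0.01 ± 0.22 SE.

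Col13a1, a collagen that stays in the cell membrane, was at 2.79, 5.84 and 7.01 CPM in HFD livers and 1.82, 2.82 and 4.23 CPM in control livers. Of the 10 HFD livers 8 lay above every control. The fold was 1.81 (log2 0.85 ± 0.20 SE, edgeR adjusted p = 0.0016), the smallest adjusted p of the 45. Lama5, the laminin chain of vascular and bile duct basement membranes, was at 4.21, 5.83 and 10.4 CPM in HFD livers and 0.858, 3.68 and 5.88 CPM in control livers. The controls were scattered, 5 HFD livers lay above all of them, and the fold was 1.82 (log2 0.86 ± 0.30 SE, edgeR adjusted p = 0.029).

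The largest fall was that of Col4a3bp, which is not a matrix gene. It was at 1.87, 3.36 and 7.33 CPM in HFD livers and 4.32, 8.34 and 10.3 CPM in control livers, with 7 HFD livers below every control (log2 -1.03 ± 0.26 SE, edgeR adjusted p = 0.0031). C105, at 1.60 CPM, lay below all HFD livers, and with it the adjusted p was 0.031.

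Adamts9, a protease that cuts proteoglycans such as versican, was at 0.651, 2.06 and 3.63 CPM in HFD livers and 2.24, 3.41 and 5.07 CPM in control livers (log2 -0.65 ± 0.25 SE, edgeR adjusted p = 0.049). Col14a1, a collagen that binds to fibrils, was at 21.1, 34.5 and 58.7 CPM in HFD livers and 35.5, 44.7 and 54.3 CPM in control livers (log2 -0.37 ± 0.15 SE, edgeR adjusted p = 0.058). Both ranges overlapped, with 6 HFD livers below every control for Adamts9 and 5 for Col14a1.

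The Adamts9 and Col14a1 calls depended on the libraries and the processing. C105 had 0 counts of Adamts9 and 14.6 CPM of Col14a1, below all 37 other libraries in both, and with it the edgeR adjusted p was 0.29 for Adamts9 and 0.35 for Col14a1. Both calls also ended when the length trend of each library was removed (log2 -0.50, edgeR adjusted p = 0.12 for Adamts9 and log2 -0.26, adjusted p = 0.17 for Col14a1), with the direction kept. The Adamts9 call ended without C103 (adjusted p = 0.11, edgeR), and the Col14a1 call without C103, C109, H114, H116 or H119 (edgeR adjusted p up to 0.13). Both transcripts are long, with a relative length of 3.37 for Adamts9 and 2.66 for Col14a1. Among 27 long transcripts of widely expressed genes that are not matrix genes, 17 fell in HFD vs. control and none rose, with a median log2 fold change of -0.29, against 18.1% of all tested genes that fell. With C105, 6 of the 27 fell. The part of transcript length in the falls of Adamts9 and Col14a1 was not tested beyond the correction above.

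**Figure D3:**
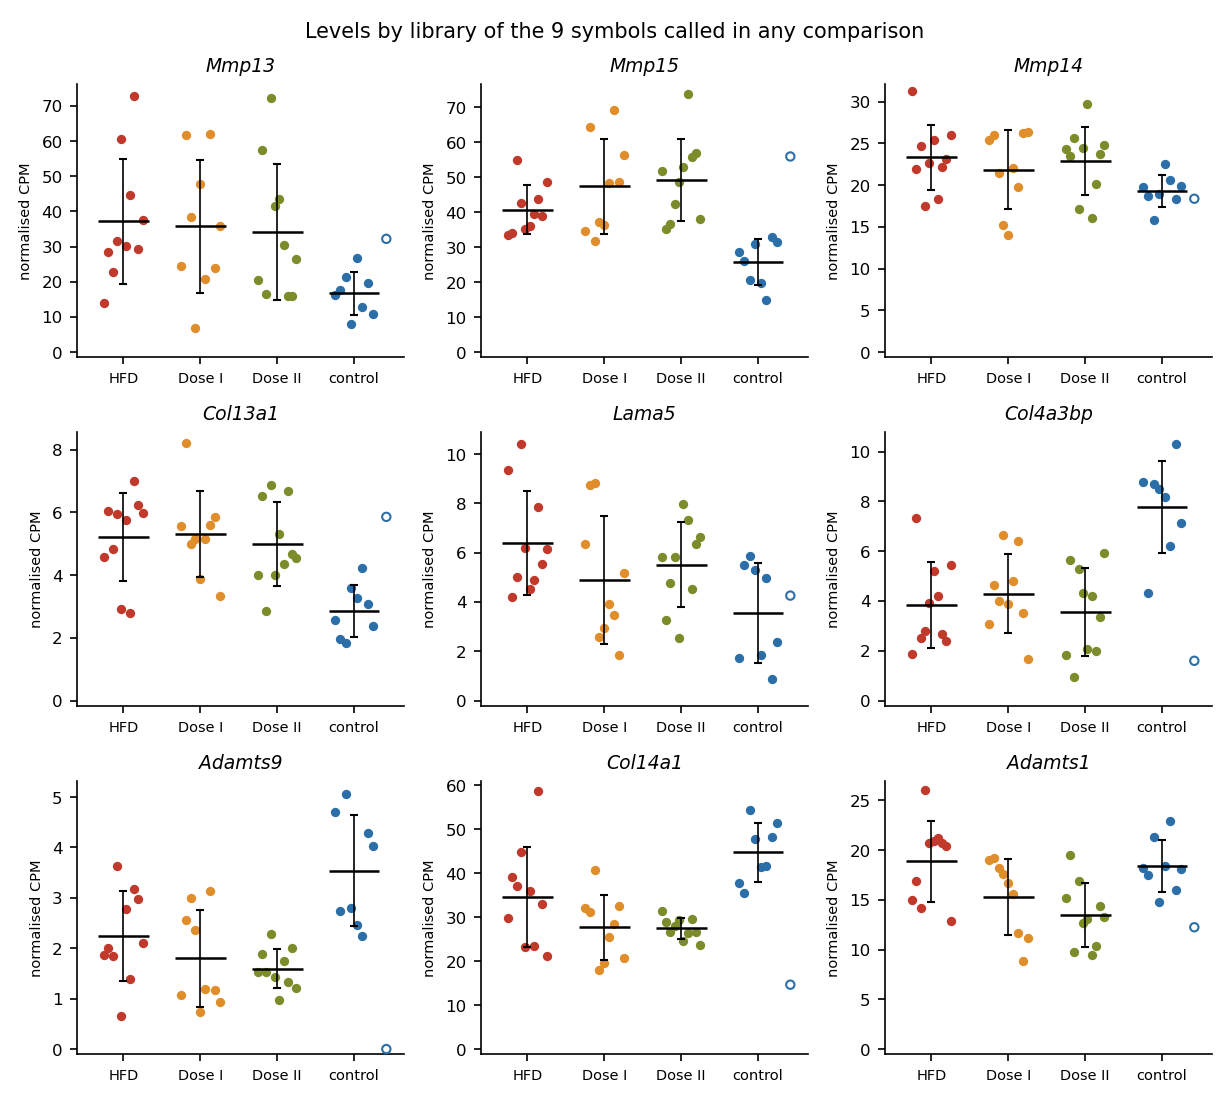
TMM-normalised CPM by library of the 9 symbols that passed an adjusted p of 0.1 in any comparison, in HFD (n = 10), Dose I (n = 9), Dose II (n = 10) and control (n = 8); dots are libraries, bars the mean ± SD, and the open circle is C105, which was left out. Mmp15 is higher in all 10 HFD livers than in the 8 controls, and both dose groups lie near HFD rather than near control for Mmp13, Mmp15 and Col13a1.

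The 95% interval of the fold included 1 for each of the 6 fibrillar collagens and 5 lysyl oxidases tested. Their log2 fold changes ran from -0.09 to 0.54 (Col5a3) in the fibrillar collagens and from -0.63 (Lox) to 0.31 in the lysyl oxidases. With the length trend of each library removed, the 6 fibrillar collagens lay higher, at 0.05 to 0.64. In that fit 2 of the 6 had an unadjusted p under 0.05 (edgeR), against 3292 of 9099 genes, and none was called. Col5a3, a minor chain of type V collagen named after its values were seen, had a fold of 1.45 (0.916 to 2.30, edgeR adjusted p = 0.23), and passed without C102 (log2 0.80, edgeR adjusted p = 0.071). Col3a1, the most abundant fibrillar collagen here, was at 67.2, 101.04 and 171 CPM in HFD livers and 65.5, 92.5 and 131.3 CPM in control livers, with a fold of 1.14 and a 95% interval of 0.917 to 1.42. For Col1a2 the fold was 1.054 (0.800 to 1.39) and for Col1a1 it was 1.16 (0.769 to 1.75). Col1a1 was at 1.47, 2.30 and 6.93 CPM in HFD livers and 1.28, 2.35 and 4.26 CPM in control livers, and the value of 6.93 CPM belonged to H113.

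Lox, which crosslinks collagen and elastin, was at 0.566, 1.27 and 2.09 CPM in HFD livers and 0.498, 1.81 and 3.88 CPM in control livers. The interval of its fold ran from 0.406 to 1.03. Loxl2, its relative that acts on basement membranes, was at 0.835, 1.49 and 3.47 CPM in HFD livers and 1.18, 2.43 and 4.26 CPM in control livers, with a fold of 0.720 (0.470 to 1.10). Both were at 1 to 25 counts per library. Without C107 the Lox difference passed (edgeR adjusted p = 0.084).

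Sparc came nearest to a call among the abundant members. HFD livers had 33.7, 57.7 and 81.0 CPM and control livers 37.5, 51 and 59.2 CPM, and 5 HFD livers lay above every control, but H119 lay below all of them (log2 0.27 ± 0.13 SE, edgeR adjusted p = 0.13). It passed in edgeR without H119 (adjusted p = 0.038), and also without C102 (0.094) or DI122 (0.091). For Fn1 the HFD livers had 1972, 2505 and 2920 CPM and the control livers 2295, 2896 and 3587 CPM, with overlapping ranges and a fold of 0.875 (0.745 to 1.03). Dcn had a fold of 0.958 (0.786 to 1.17) and Bgn of 0.916 (0.769 to 1.09).

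For the basement membrane, Col4a1 had a fold of 0.970 (0.775 to 1.21), Col4a2 of 0.923 (0.701 to 1.21) and Col18a1 of 1.11 (0.929 to 1.32). The laminin chains Lamb1 and Lamc1, which pair with an alpha chain such as Lama5, had folds of 1.01 (0.814 to 1.26) and 1.10 (0.881 to 1.38). Of the inhibitors, Timp2 had a fold of 0.917 (0.764 to 1.10) and Timp3 of 0.892 (0.704 to 1.13).

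**Figure D4:**
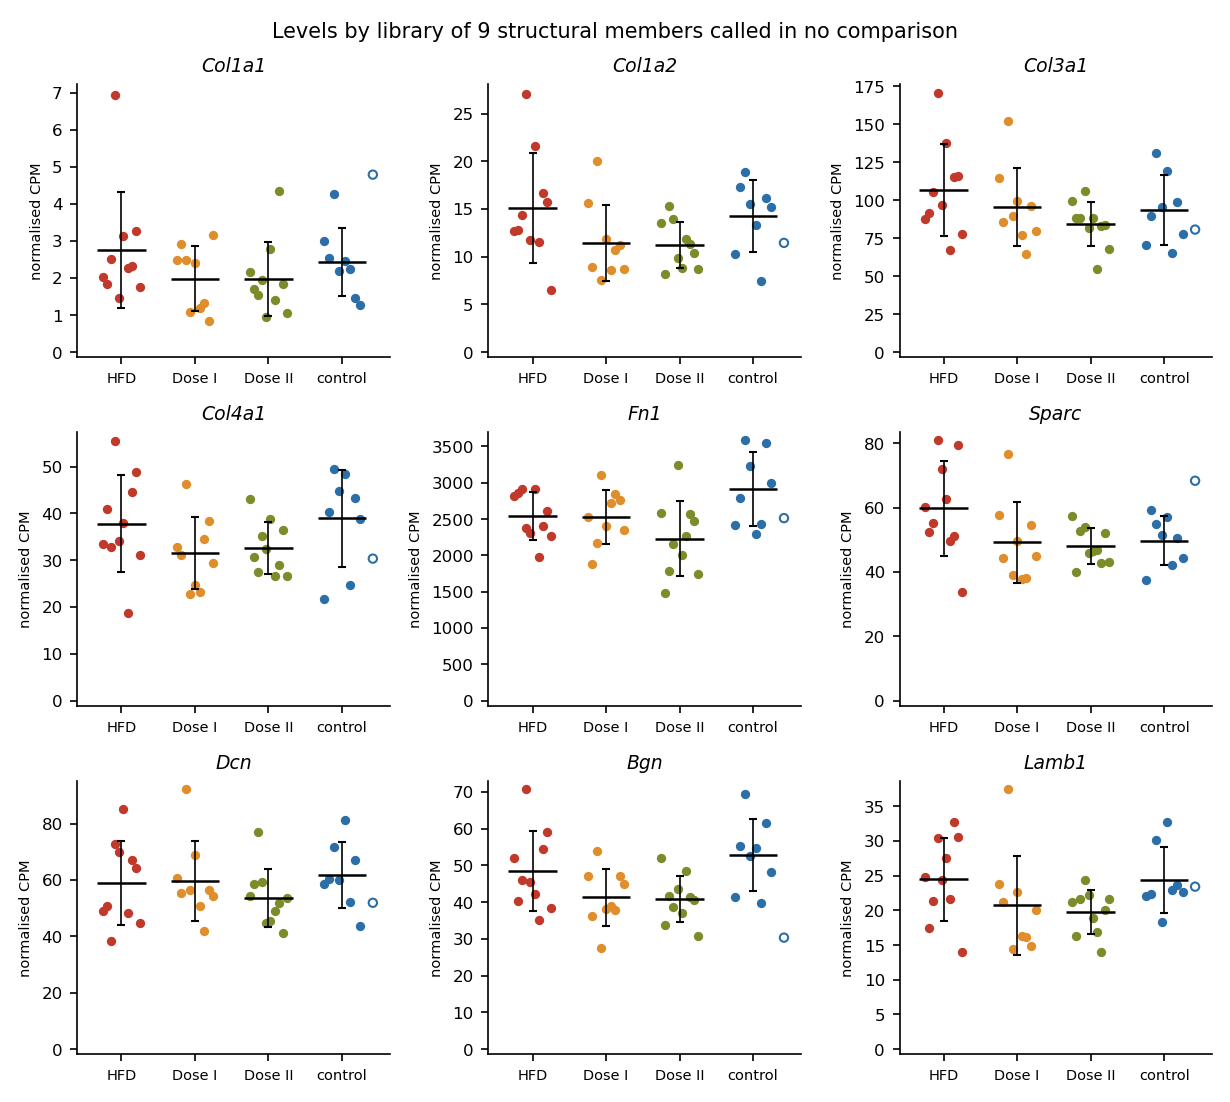
TMM-normalised CPM by library of 9 abundant or well-known structural members that passed the threshold in no comparison, with groups, bars and the open circle (C105) as in the plot of the called symbols. All 4 groups overlap for each gene, and H113 in HFD and DI122 in Dose I are the highest dots of their groups for Col3a1, Col4a1, Sparc and Bgn.

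Some of the members that failed the filter gave values when every gene with a count was fitted. Of the 44 such members, 2 passed in HFD vs. control, against 24.0% of all genes in that fit, and both were named after their values were seen: Adamts20 (log2 1.31 ± 0.45 SE, edgeR adjusted p = 0.037) and the cartilage collagen Col9a3 (log2 1.56 ± 0.58 SE, edgeR adjusted p = 0.053), which had at most 17 counts (Adamts20) and 9 counts (Col9a3) in a library. Timp1 was at 0.55, 1.36 and 2.81 CPM in HFD livers and 0.249, 0.812 and 2.23 CPM in control livers. The ranges overlapped, and its log2 fold change was 0.84 ± 0.39 SE (edgeR adjusted p = 0.14). In the filtered fits without C102 or C106 Timp1 passed the count filter and was called (edgeR adjusted p = 0.094 and 0.092). Those fits tested another set of genes. Lum was at 0.170, 0.918 and 1.98 CPM in HFD livers and 0.200, 0.610 and 3.48 CPM in control livers.

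Other genes of the matrix were taken from lists that exclude the members, and their counts stand against 18.1% of all tested genes that rose and 18.1% that fell. Of 16 tested genes of collagen synthesis and processing, 5 rose and 1 fell in HFD livers, a share close to the 36.2% of all tested genes. The smallest adjusted p values were those of Colgalt1, which glycosylates collagen (log2 0.45 ± 0.14 SE, edgeR adjusted p = 0.012), and Ppib, a folding enzyme of the endoplasmic reticulum (log2 0.24 ± 0.08 SE, edgeR adjusted p = 0.021), which both rose. Colgalt2 fell (log2 -0.85 ± 0.32 SE, edgeR adjusted p = 0.041). With C105 the list had 2 that rose and 1 that fell, and the edgeR adjusted p was 0.68 for Ppib and 0.10 for Colgalt2.

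Of 9 genes of matrix uptake and breakdown, 2 rose and 1 fell, again close to the share of all tested genes. Mrc2, the receptor that takes up cleaved collagen, was at 21.4 CPM on average in HFD and 14.9 CPM in control (log2 0.51 ± 0.13 SE, edgeR adjusted p = 0.0033). Of 17 genes of TGF-beta and PDGF signalling, 4 rose and 7 fell, or 2 and 2 with C105, against 15.6% of all genes called with C105. Pdgfb, the ligand that drives stellate cells to divide, averaged 4.03 CPM in HFD and 1.48 CPM in control (log2 1.46 ± 0.25 SE, edgeR adjusted p = 5.6e-05). Its groups, without C105, did not overlap, which was the case for 1.78% of all tested genes in either direction. The TGF-beta repressor Skil fell (log2 -1.19 ± 0.27 SE, edgeR adjusted p = 0.0015), as did the PDGF receptor Pdgfra (log2 -0.58 ± 0.15 SE, edgeR adjusted p = 0.0035).

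Of 14 receptors for collagen and laminin, 3 rose and 2 fell, a share close to that of all tested genes. Itga7, an integrin subunit that binds laminin, averaged 43.2 CPM in HFD and 15.2 CPM in control (log2 1.53 ± 0.25 SE, edgeR adjusted p = 3.1e-05). Itga10, a collagen-binding subunit, rose too (log2 0.95 ± 0.23 SE, edgeR adjusted p = 0.0028), and Itga9 fell (log2 -0.85 ± 0.21 SE, edgeR adjusted p = 0.0028). Of 17 partners of basement membrane and matrix, none rose and 1 fell, the calcium-binding glycoprotein Smoc2 (log2 -0.58 ± 0.22 SE, edgeR adjusted p = 0.042). With C105, 2 receptors rose and 1 fell, and 1 gene of uptake and breakdown rose and 1 fell.

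Markers of the cells that could carry these transcripts moved unevenly in HFD vs. control. Their counts stand against 18.1% of all tested genes that rose and 18.1% that fell. Of 14 tested stellate markers, none rose and 1, Reln, fell (log2 -0.99 ± 0.16 SE). The marker sum was 210 to 364 CPM in HFD and 250 to 348 CPM in control. Lrat, which defines quiescent stellate cells, was at 2.11 to 5.61 CPM in HFD and 2.49 to 5.39 CPM in control, and Acta2, the actin of activated ones, at 4.01 to 14.7 CPM in HFD and 3.84 to 15.0 CPM in control. Of 4 portal fibroblast and mesothelial markers none was called.

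Of 20 tested macrophage markers, 14 rose in HFD and none fell, against 18.1% of all tested genes that rose. With C105 it was 7 of 19, against 600 of 9045 genes. The macrophage sum was 357 to 610 CPM in HFD, 266 to 366 CPM in the 8 controls and 663 CPM in C105. Of 16 sinusoidal endothelial markers 3 rose, a share close to that of all tested genes, and none rose with C105. The sinusoidal sums were 237 to 454 CPM in HFD and 220 to 341 CPM in control. Of 7 cholangiocyte markers 1 rose (Krt19, with a C105 adjusted p of 0.11, edgeR), with sums of 182 to 249 CPM in HFD and 163 to 265 CPM in control. Of 16 hepatocyte markers 2 rose and 5 fell, and their sum was 164860 to 231246 CPM in HFD and 239228 to 274151 CPM in control. None of 6 neutrophil and lymphocyte markers was called. None of these lists holds a gene at 0 in all libraries except the stellate list, with 1. The part of these shifts in the matrix values was not tested.

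Dose I vs. HFD and Dose II vs. HFD ask what CMA changed at each dose. Both share the HFD libraries. With Dose I, none of the 45 members passed in edgeR (5 had an unadjusted p under 0.05, against 9.28% of all tested genes), against 0.187% of all tested genes (0.154% rose and 0.033% fell). DESeq2 called none of the 16 members it tested, against 1.61% of its genes. With Dose II, 1 of 45 passed (2.22%), against 5.63% of all tested genes. The tested genes divided into 307 that rose (3.37%) and 205 that fell (2.25%) with Dose II, or 151 and 439 when limma-trend was run on log2(TPM + 1). In Dose II vs. Dose I, none of 45 members and none of the 9099 genes (0.0%) passed in edgeR. At an unadjusted p under 0.05 it was 0 members and 2.98% of all tested genes, 31 of 45 members were below 0, against 49% of all tested genes, and DESeq2 called none of 12976 genes, of which 336 had an unadjusted p under 0.05.

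Adamts1, a protease that cuts aggrecan and versican, was the member that fell with Dose II. It was at 9.42, 13.1 and 19.5 CPM in Dose II livers and 12.8, 20.5 and 26.1 CPM in HFD livers. The ranges overlapped, 4 Dose II livers lay below every HFD liver and 6 HFD livers lay above every Dose II liver. The fold was 0.709 (log2 -0.50 ± 0.14 SE, edgeR adjusted p = 0.044), and the call held in all 37 fits that left out 1 library. With Dose I, Adamts1 was at 8.84, 16.7 and 19.2 CPM (log2 -0.30 ± 0.14 SE, edgeR adjusted p = 0.51). In controls it was at 14.8, 18.2 and 22.9 CPM, and HFD vs. control gave 0.05 ± 0.15 SE.

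Most members lay slightly lower with CMA, although Adamts1 alone passed the test. With Dose II, 35 of 45 log2 fold changes were below 0, against 50.9% of all tested genes, and the median was -0.15, against -0.0040 over all tested genes. With Dose I, 32 of 45 were below 0, against 49.6% of all tested genes, with a median of -0.10. The Dose I value moved with library H113: without it 27 of 45 were below 0 and the median was -0.05. Without H113 the Dose II median was -0.14, with 33 of 45 below 0. The 27 long transcripts that are not matrix genes also lay lower with Dose II, at a median of -0.13, and had a median of -0.04 with Dose I. With Dose II 5 of the 27 fell and none rose, against 2.25% of all tested genes that fell. With C105 in the fit 1 of the 27 fell, against 97 of 9045 genes. A fit with the length trend of each library removed was run for both doses, and its member medians are not given here. The part of transcript length in the lower matrix values was not tested beyond that fit. Members share cells and libraries, so these counts are a description.

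The tested members with an unadjusted p under 0.05 (edgeR) in Dose II vs. HFD numbered 9, against 18.6% of all tested genes. All 9 were below 0: Col1a2, Col3a1, Col14a1, Lamb1, Lamc1, Sparc, Bgn, Adamts1 and Adamts4. Col3a1 was at 54.6, 85.9 and 105.9 CPM in Dose II livers and 67.2, 101.04 and 171 CPM in HFD livers. Its fold was 0.785 (0.638 to 0.966, edgeR adjusted p = 0.19). Sparc was at 40.1, 46.7 and 57.3 CPM in Dose II livers and 33.7, 57.7 and 81.0 CPM in HFD livers, with a fold of 0.802 (0.674 to 0.955, edgeR adjusted p = 0.15). For both genes the HFD livers reached higher while the lower ends of the groups overlapped. Without H119, Sparc and Col1a2 passed in edgeR (adjusted p = 0.058 for Sparc and 0.095 for Col1a2).

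Adamts4, an aggrecanase named here after its values were seen, was at 0.524, 1.72 and 3.03 CPM in Dose II livers and 1.0, 3.03 and 4.53 CPM in HFD livers (log2 -0.71 ± 0.27 SE, edgeR adjusted p = 0.13). DESeq2 gave it an adjusted p of 0.098, and edgeR gave 0.087 without H117 and 0.077 without DII133. Lamb1 was at 14.0, 20.6 and 24.3 CPM in Dose II livers and 14.0, 24.6 and 32.7 CPM in HFD livers, with a fold of 0.800 (0.651 to 0.984, edgeR adjusted p = 0.23). Timp1, under the filter, was at 0.319, 0.599 and 1.72 CPM in Dose II livers and 0.55, 1.36 and 2.81 CPM in HFD livers. Without the filter its log2 fold change was -1.06 ± 0.37 SE (edgeR unadjusted p = 0.0063, adjusted p = 0.13). In the filtered fit without C104, a control library, Timp1 passed the count filter and was called (log2 -1.07, edgeR adjusted p = 0.097). That fit tested another set of genes, so the 2 adjusted p values are not directly comparable.

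The members that rose in HFD livers showed no call with CMA. Mmp13 was at 6.88, 35.8 and 62.1 CPM in Dose I, 16, 28.5 and 72.2 CPM in Dose II and 14.1, 30.9 and 72.9 CPM in HFD. The ranges were wide and overlapped, and the fold of Dose II vs. HFD was 0.913 (0.601 to 1.39). Mmp15 was at 31.8, 48.3 and 69.2 CPM in Dose I, 35.3, 50.2 and 73.7 CPM in Dose II and 33.4, 39.2 and 54.95 CPM in HFD. Its fold was 1.203 (0.984 to 1.47) with Dose II. Both dose groups reached higher than HFD, and their lower ends overlapped with it. For Col13a1 the fold with Dose II was 0.953 (0.748 to 1.22), and for Lama5 it was 0.858 (0.592 to 1.24).

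The members that were lower in HFD livers gave no call with CMA either. Col4a3bp was at 1.67, 4.0 and 6.67 CPM in Dose I, 0.955, 3.76 and 5.93 CPM in Dose II and 1.87, 3.36 and 7.33 CPM in HFD, with a fold of 0.925 (0.641 to 1.34) for Dose II. Col14a1 was at 18.1, 28.5 and 40.8 CPM in Dose I, 23.7, 27.3 and 31.3 CPM in Dose II and 21.1, 34.5 and 58.7 CPM in HFD. Its fold was 0.803 (0.654 to 0.986, edgeR adjusted p = 0.50) with Dose I and 0.791 (0.648 to 0.966, edgeR adjusted p = 0.19) with Dose II. For Adamts9 the fold with Dose II was 0.702 (0.489 to 1.01).

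In Dose I, Timp3, an inhibitor bound to the matrix, was the 1 member above HFD with an unadjusted p under 0.05. It was at 14.6, 24.0 and 47 CPM in Dose I livers and 13.4, 18.7 and 25.9 CPM in HFD livers, with a fold of 1.29 (1.03 to 1.62, edgeR adjusted p = 0.48). DI127 and 1 other Dose I liver lay above every HFD liver.

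**Figure D5:**
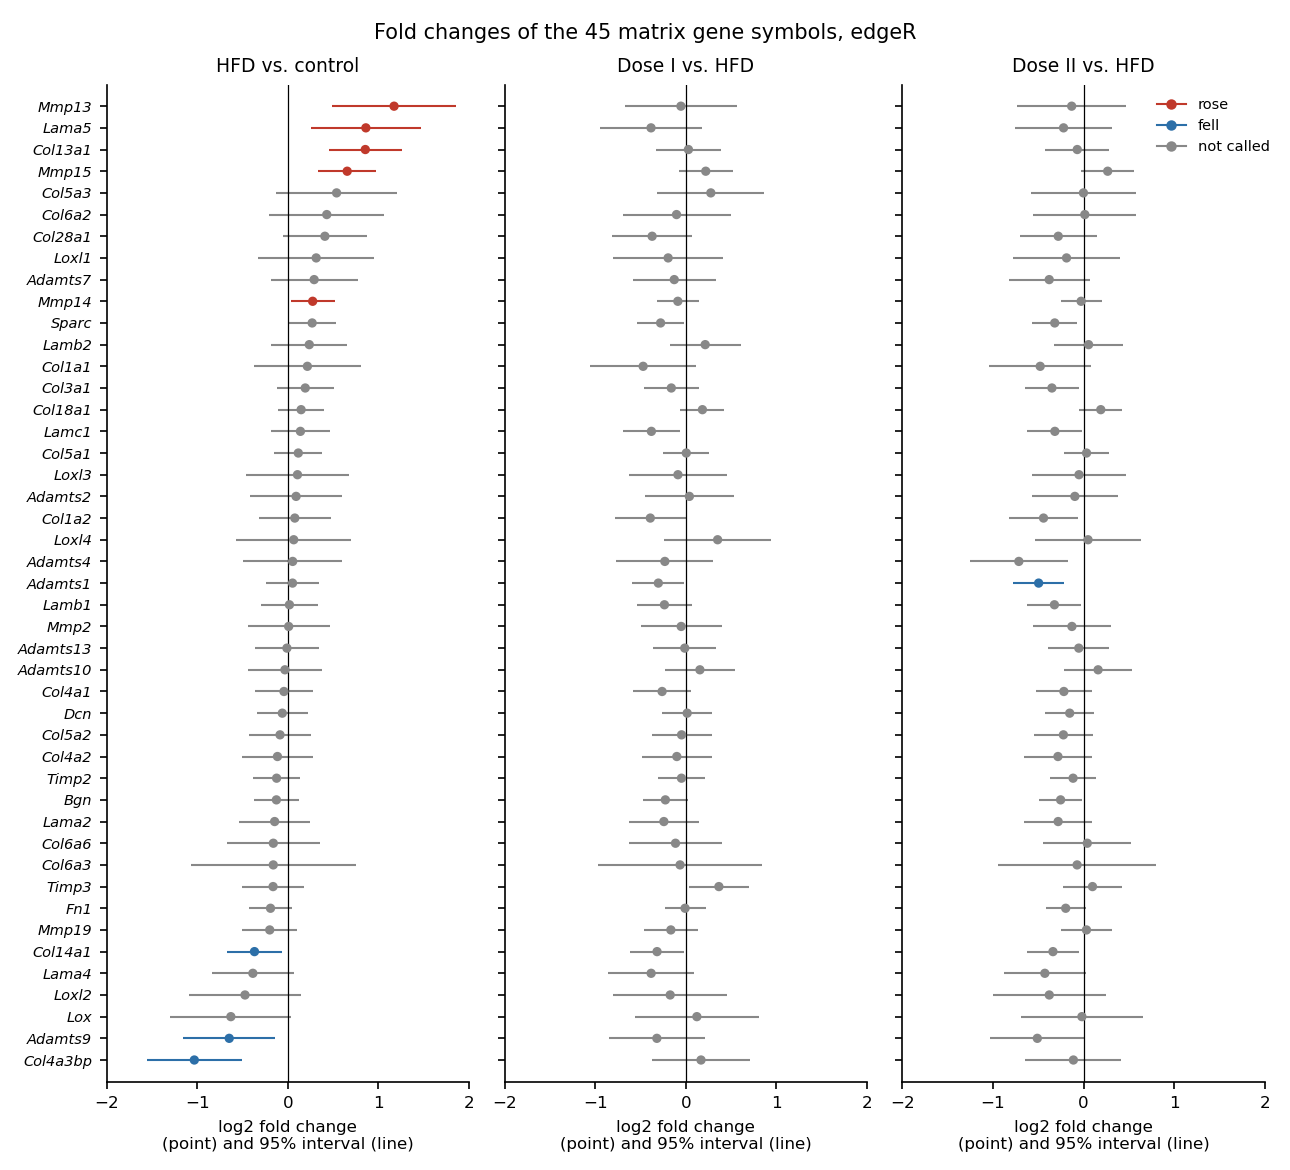
Log2 fold change (points) with its 95% interval (lines) of the 45 tested members in HFD vs. control, Dose I vs. HFD and Dose II vs. HFD, ordered by the first; red rose, blue fell and grey did not pass an adjusted p of 0.1. In HFD vs. control 5 symbols are red and 3 blue, Dose I has none of either, and Dose II has Adamts1 alone in blue with 35 of 45 points left of 0.

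Among the other lists, none had a called gene in Dose I vs. HFD, against 0.187% of all tested genes. In Dose II vs. HFD the lists of collagen processing, uptake and breakdown, TGF-beta and PDGF signalling and matrix receptors had no called gene, and Fbn1, the fibrillin of microfibrils, fell as 1 of 17 partners (log2 -0.48 ± 0.15 SE, edgeR adjusted p = 0.076). Of 20 macrophage markers 7 fell and 1, Cd14, rose, and of 16 sinusoidal markers 3 fell (Dnase1l3, Cdh5 and Lyve1). Over all tested genes 2.25% fell and 3.37% rose. Of 14 stellate markers, Cygb rose (log2 0.44 ± 0.13 SE, edgeR adjusted p = 0.052) and none fell. With C105 in the fit neither Fbn1 nor Cygb was called (edgeR adjusted p = 0.14 for Fbn1 and 0.11 for Cygb). In that fit 2 of 19 macrophage markers and 1 sinusoidal marker fell, against 97 of 9045 genes. The macrophage sum was 289 to 539 CPM in Dose I, 265 to 499 CPM in Dose II and 357 to 610 CPM in HFD, and the stellate sum 202 to 324 CPM in Dose I, 244 to 300 CPM in Dose II and 210 to 364 CPM in HFD. Their part in the lower matrix values was not tested.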

How the data were processed

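Liver RNA-seq of 38 hamster libraries was analysed. Kallisto was run by the authors against MesAur1.0 (annotation release 101), and they deposited estimated counts and TPM by gene symbol. The read filters before this are not given in the sources used here. Estimated counts were rounded. All 38 columns were used. The authors left out 1 control after a principal component analysis, unnamed in their text; C105 was taken as that library. Genes passing filterByExpr over the 4 groups were tested in 1 fit of 37 libraries with edgeR 4.0.16 (TMM, quasi-likelihood test, Benjamini-Hochberg over all tested genes, limma 3.58.1, R 4.3.3), and called at an adjusted p under 0.1. CPM are TMM-normalised, and intervals are 95%. Relative length is the ratio of count to TPM. Alternatives used DESeq2 1.42.0, limma-trend on TPM, other filters and libraries. Members and lists were chosen with earlier results of these data known. Named members were those called, the 10 highest in TPM and a panel of well-known members; in other lists, up to 3 genes with the smallest adjusted p. Scripts were tested on simulated data. The smallest chi-square per degree of freedom between 2 libraries of a group was 6.71, so no library was counted as a copy.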

Additional observations from a re-analysis of the deposited data

Results flagged for a closer look

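For 7 pairs of a named member and a group, 1 library stood apart from the rest of its group, which is 6.03% of the pairs tested, where chance flags about 1 in 20, so the number of flags is near that of chance. Each value is in TMM-normalised CPM. In Dose I, Timp3 was at 47.03 in DI127 with the next library at 26.5, Lamb1 at 37.5 in DI122 with the next at 23.8, Loxl2 at 3.77 in DI121 with the next at 2.001, and Timp1 at 2.58 in DI123 with the next at 1.33. In Dose II, Dcn was at 77.2 in DII131 with the next at 59.2. In HFD, Col1a1 was at 6.93 in H113 with the next at 3.26, and Mmp9 at 0.334 in H117, which is 2 counts, with the next at 0.174. H113 and DI122 are also the livers that led their groups for many matrix members at once.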

How the results depend on the processing

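In HFD vs. control 8 members were called. The count was 5 with all 38 libraries, 5 with all 38 and the length trend of each library removed (an alternative chosen after seeing the data), 4 of 24 when every library had to hold at least 10 counts, and 5 to 10 over the 37 fits that left out 1 library each. It was 10 with DESeq2, 9 with no filter, 8 with RLE, 8 with only the groups compared, 7 with limma-trend on log2(TPM + 1) or log2(TPM + 0.1), 6 without the length trend and 6 at an adjusted p under 0.05. The share of all genes called differed too: 36.2% of 9099 in the main fit, 15.6% of 9045 with all 38 libraries and 24.0% of 12976 with no filter. DESeq2 had 1669 that rose and 1648 that fell of 10727 genes. With at least 10 counts it was 1457 and 1443 of 7470, and without the length trend 1416 and 1457 of 9099. Col13a1, Lama5, Mmp13, Mmp15 and Col4a3bp were called under every alternative that tested them and in all 37 fits with 1 library left out. In Dose I vs. HFD and Dose II vs. Dose I the count was 0 under every alternative run and 0 to 0 with 1 library left out. In Dose II vs. HFD it was 1, but 2 with DESeq2, and 1 to 3 with 1 library left out. Over all genes in Dose II vs. HFD, DESeq2 had 373 that rose and 268 that fell of 8978. Calls gained in single fits without 1 library were those of Sparc, Timp1 (in fits where it passed the count filter), Lox, Col5a3, Col1a2 and Adamts4. No paired analysis was possible because the replicate numbers run over all groups and are shared by none. Of the 67 members under 1 TPM, 20 were tested. The size of change that could be detected in the low members was not computed.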
